A study of Mus musculus with 20 samples.

Results

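The mitochondrial ribosomal protein genes were taken as the protein-coding genes of the GENCODE mouse annotation whose symbol begins with Mrpl or Mrps followed by a number. There were 78 of them, 49 Mrpl and 29 Mrps genes on 17 chromosomes, among 55487 gene identifiers with counts. All 78 passed the filter on low counts and were tested among 12799 genes, and 5 pseudogenes with matching symbols were left out.

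RNA was sequenced from 20 samples of BV-2 microglia, an immortalized mouse microglial cell line of wild-type genotype, so all groups come from a single line. Young (control) cells were of low passage and aged cells had been kept in culture for a long period before use. Each age was left untreated or was exposed to 100 ng/ml of bacterial LPS for 6 hours, an inflammatory stimulus, giving young untreated, aged untreated, young LPS-treated and aged LPS-treated groups of 5 samples each. The samples of a group are numbered by batch, and each of the 5 batches holds 1 sample of every group. The labels do not say how the samples of a group were kept apart, so p-values measure the spread between these samples, part of which may be technical.

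Mitochondria keep their own ribosome, which translates the few membrane proteins encoded by mitochondrial DNA, all of them parts of the respiratory chain and of ATP synthase. Its ribosomal RNAs come from mitochondrial DNA, whereas all of its proteins are encoded in the nucleus, made in the cytosol and imported. The large subunit, named Mrpl, carries out peptide bond formation, and the small subunit, named Mrps, decodes the message. Some of the proteins have homologs in the bacterial ribosome and the others were acquired by the mitochondrial one.

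By known position in the particle, 51 of the 78 genes encode proteins of the large subunit and 26 of the small subunit. Mrps30 and Mrps18a keep small-subunit names but belong to the large subunit. Mrps36 belongs to neither, since its product is a component of the 2-oxoglutarate dehydrogenase complex. Proteins with bacterial homologs account for 30 of the large-subunit and 16 of the small-subunit genes, and the mitochondria-specific ones for 21 and 10.

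Libraries held 11371508 to 16829292 counts, of which mitochondrial genes took 0.517% to 1.3%. The microglial identity of the samples was checked with 11 markers of microglia and macrophages, whose summed level was 2240 to 4287 CPM (read counts scaled to a common library size with TMM factors) in single libraries. All 11 were above the floor of 3 counts in every library of both untreated groups, and 9 in every library of both LPS-treated groups. P2ry12 and Cx3cr1, markers of resting microglia, averaged 1.18 and 1.05 CPM in young untreated samples. No marker of astrocytes, neurons or endothelial cells was above the floor in every library of any group. Their sums in a single library reached at most 0.747, 0.414 and 0.414 CPM, and 4 oligodendrocyte markers summed to at most 1.78 CPM. The 4 LPS-response genes Tnf, Il1b, Il6 and Nos2 summed to 13.0 to 34.4 CPM in untreated and to 509 to 2240 CPM in LPS-treated libraries. The 5 samples of a group differed by more than counting error, with a chi-square per degree of freedom of 2.42 to 26.8 over 40 pairs of libraries.

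Stretches upstream of the starts of 4 genes are shown because these genes carried the largest responses to LPS in each direction among those with a RefSeq promoter window, and because the nuclear respiratory factor NRF1 and the ETS factor GABP are known regulators of nuclear genes for mitochondrial proteins. The sequences are from RefSeq on GRCm38.p6, read 5′ to 3′ on the strand of the gene. Capitals mark matches on either strand to the palindromic NRF1 consensus, the ETS motif CCGGAAG, the E-box CACGTG bound by Myc and Max, or the NF-kappaB consensus. For Mrpl52 (chr14:54426659-54426908, plus strand), Mrpl41 (chr2:24975099-24975348, minus strand) and Mrpl34 (chr8:71464676-71464925, plus strand) the 250 bases before the start are given. For Mrpl39 (chr16:84735350-84735379, minus strand) only 30 bases around the match are given, since GENCODE starts this gene further upstream and places the stretch in its first exon.
Mrpl52: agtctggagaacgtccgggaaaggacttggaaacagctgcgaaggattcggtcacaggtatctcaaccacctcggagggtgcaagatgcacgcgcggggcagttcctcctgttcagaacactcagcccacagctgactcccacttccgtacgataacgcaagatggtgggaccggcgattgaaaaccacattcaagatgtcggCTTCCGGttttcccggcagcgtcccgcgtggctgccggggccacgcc
Mrpl39: aaggagaggcGCGCATGCGCccccgcgtgg
Mrpl41: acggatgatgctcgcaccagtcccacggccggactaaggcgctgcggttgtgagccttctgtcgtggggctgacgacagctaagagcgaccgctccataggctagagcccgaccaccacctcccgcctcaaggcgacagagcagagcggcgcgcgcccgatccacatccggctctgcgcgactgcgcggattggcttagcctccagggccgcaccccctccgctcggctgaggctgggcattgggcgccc
Mrpl34: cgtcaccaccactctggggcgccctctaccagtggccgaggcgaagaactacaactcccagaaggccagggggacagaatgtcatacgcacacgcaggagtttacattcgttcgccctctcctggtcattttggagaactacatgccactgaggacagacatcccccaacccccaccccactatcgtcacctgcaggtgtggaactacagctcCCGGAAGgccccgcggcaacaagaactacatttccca

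Mrpl52 and Mrpl34 each held 1 ETS match, Mrpl39 held 1 NRF1 match, and none of the 4 motifs was found in the letters shown for Mrpl41. Promoter windows were at hand for 69 of the 78 genes. In 250 bases upstream, the NRF1 motif was found in 13.3% of 75 windows of these genes, against 8.73% of 11020 windows of tested protein-coding genes and 3.74% of all 32851 windows. The ETS motif was found in 24%, against 14.6% and 6.91%. The E-box was in 9.33%, against 8.55% and 6.02%, and the NF-kappaB consensus in 2.67%, against 4.57% and 3.90%. A gene with several windows counts more than once here. The 7 windows with an E-box came from 5 of the 69 genes, since Mrpl2 has several windows. Other motifs searched were the YY1 motif AAGATGGC (5.33%, 2.15% and 1.56% in the same order), the GC box GGGCGG (49.3%, 58.0% and 32.7%) and the CCAAT box CCAAT (37.3%, 35.7% and 33.8%). Matches to different motifs could overlap. A match describes the letters and was not tested as a binding site.

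All 78 genes were expressed in every library, with no single value below 4.45 CPM, and the median coefficient of variation within a group was 6.13%. Compared per length, as CPM per kilobase of merged exon length (RPKM), mean levels over the 20 libraries ran from 1.64 to 104, with a median of 21.7. The highest level per length was that of Mrpl12, the L7/L12 protein of the stalk that recruits translation factors, at 104 RPKM. Mrpl36, a small zinc-binding protein of the large subunit, followed at 83.6 RPKM and Mrpl34, the homolog of bacterial L34, at 77.2 RPKM. The lowest were Mrps35 at 3.15 RPKM, Mrpl48 at 2.67 RPKM and Mrpl23, which lies at the exit of the peptide tunnel, at 1.64 RPKM. The merged exons of the annotation span 8631 bases in Mrps35, 8152 in Mrpl48 and 4883 in Mrpl23, against 607 in Mrpl34, and long alternative exons lower a level per length.

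**Figure D1:**
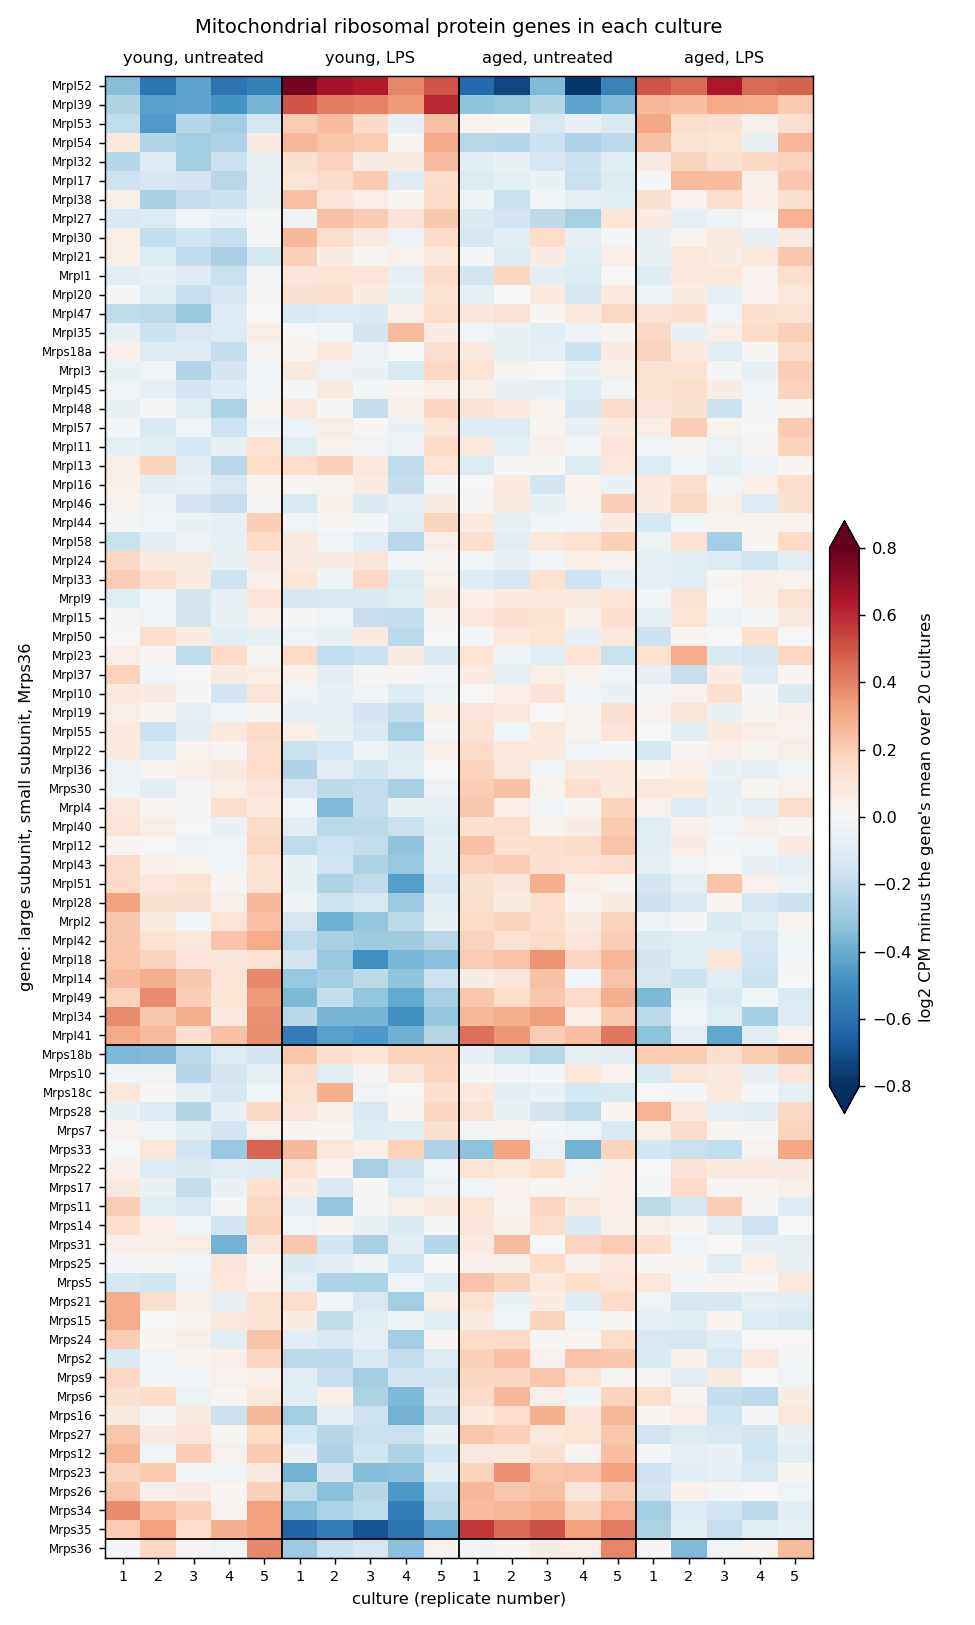
Each row is a gene and each column a sample, numbered by batch within its group. Colour gives log2 CPM minus the mean of the gene over all 20 samples, and horizontal lines separate the 51 large-subunit genes, the 26 small-subunit genes and Mrps36. Within each of these blocks rows are ordered by the LPS response of young samples, so the gradient down a block in that group follows from the ordering. Mrpl52 and Mrpl39 are the strongest rows at the top of the large-subunit block, and Mrps35 is the strongest at the bottom of the small-subunit block.

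The first question was which mitochondrial ribosomal protein genes respond to LPS in young BV-2 microglia. With edgeR's quasi-likelihood test and Benjamini-Hochberg adjustment over all 12799 genes, 14 of the 78 rose (17.9%, against 31.2% of all genes tested) and 28 fell (35.9%, against 33.5%). Both shares moved with the scaling. With library sizes alone in place of TMM, where the median over all genes was at -0.23 on the log2 scale, 4 rose and 56 fell, and 5 of the 14 genes that rose under TMM had a negative log2 fold change. The share of all genes called with library sizes alone is not given here, for these or any later counts. Changes were small beside those of other genes, with a median absolute log2 fold change of 0.17 against 0.35 over all genes tested, and Mrpl52 alone changed more than 2-fold, against 16.6% of all genes tested. Mrpl52 was at 0.87 with library sizes alone, and Mrps35, at -1.05, passed that size instead. Of the 42 genes called, 41 moved in the same direction in all 5 batches and Mrps10 in 4. Total RNA of a culture was measured, so a lower level per cell and fewer cells with the transcript cannot be told apart.

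Mrpl52, a mitochondria-specific protein of the large subunit, changed most (ENSMUSG00000010406, GRCm38 chr14:54426909-54429756). It measured 42.1, 35.9, 39.8, 35.5 and 36.7 CPM in young untreated samples 1 to 5 and 91.0, 84.4, 83.1, 70.2 and 75.6 CPM after LPS. The groups did not overlap, and the log2 fold change was 1.09 ± 0.079 (SE, edgeR adjusted p = 4.04e-11). Mrpl39, another mitochondria-specific protein of the large subunit (ENSMUSG00000022889, chr16:84717576-84735742), measured 57.5, 50.2, 50.5, 48.7 and 52.5 CPM in untreated and 96.1, 90.6, 89.2, 85.9 and 103 CPM in LPS-treated young samples. Every treated value was above every untreated one, with a log2 fold change of 0.84 ± 0.055 (SE, edgeR adjusted p = 5.49e-12).

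Mrps18b, 1 of 3 paralogs related to the bacterial S18 protein (ENSMUSG00000024436, chr17:35910379-35916389), measured 57.9, 58.2, 63.9, 69.0 and 66.7 CPM untreated and 86.6, 81.4, 80.1, 84.4 and 84.4 CPM after LPS, again without overlap. Its log2 fold change was 0.40 ± 0.051 (SE, edgeR adjusted p = 3.93e-07). An antisense gene covers 30.5% of its exon length, and whether strand was used in counting is not given in the sources used here. Mrpl53 and Mrpl54, which sit at the L7/L12 stalk, rose by log2 fold changes of 0.41 and 0.32, but Gm42688 alone overlaps 88.0% of the exon length of Mrpl53 on the same strand, so its counts are uncertain. Mrpl32, a homolog of bacterial L32, rose by 0.31. The other 8 genes that rose did so by 0.16 to 0.25.

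Genes that fell were led by Mrps35, a mitochondria-specific protein of the small subunit (ENSMUSG00000040112, chr6:147042764-147073991). Its levels were 30.2, 32.9, 28.9, 31.8 and 33.0 CPM in untreated and 16.8, 17.9, 16.2, 17.5 and 19.8 CPM in LPS-treated young samples. The groups were far apart, with a log2 fold change of -0.83 ± 0.066 (SE, edgeR adjusted p = 1.78e-10). Mrpl41, a mitochondria-specific large-subunit protein also known to bind Bcl-2 (ENSMUSG00000036850, chr2:24974117-24975098), measured 36.4, 35.2, 32.5, 34.8 and 38.2 CPM before and 20.1, 21.9, 21.5, 22.7 and 25.2 CPM after LPS. The ranges did not meet, and the log2 fold change was -0.67 ± 0.082 (SE, edgeR adjusted p = 2.26e-07).

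Mrpl34 (ENSMUSG00000034880, chr8:71464959-71465747), among the highest of the set per length, measured 59.9, 53.3, 56.6, 48.6 and 59.3 CPM untreated and 39.5, 35.5, 35.6, 32.7 and 37.1 CPM after LPS. The groups did not overlap, with a log2 fold change of -0.62 ± 0.068 (SE, edgeR adjusted p = 3.99e-08). Mrpl49, Mrps34 and Mrpl14 fell by 0.55, 0.54 and 0.50 on the log2 scale. Mrpl14, the homolog of bacterial L14, lies at the interface of the subunits. Mapk8ip3 alone overlaps 63.4% of the exon length of Mrps34 on the opposite strand and Nme3 overlaps it on the same strand, so its value is uncertain. The remaining 22 genes that fell had log2 fold changes of -0.48 to -0.17.

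**Figure D2:**
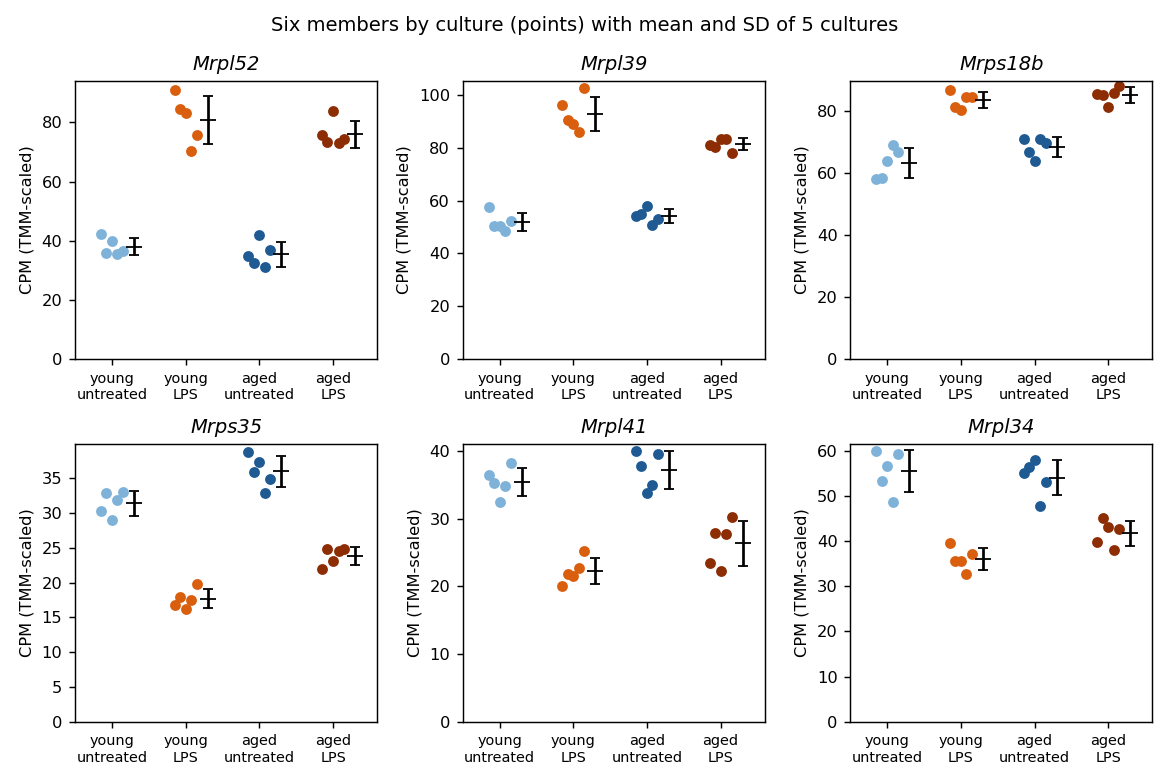
Each panel plots the CPM of a gene, scaled by TMM factors and starting at 0, in the 4 groups. Points are the 5 samples of a group and the black mark is their mean with SD. After LPS, Mrpl52, Mrpl39 and Mrps18b lie above the untreated samples of the same age without overlap, and Mrps35, Mrpl41 and Mrpl34 lie below them.

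The subunits are described by their counts. Of 51 large-subunit genes 12 rose and 15 fell with LPS in young samples (median log2 fold change -0.02), and of 26 small-subunit genes 2 rose, Mrps18b and Mrps10, and 12 fell (median -0.13), beside 31.2% higher and 33.5% lower among all genes tested. The counts with library sizes alone were 3 and 34 for the large and 1 and 21 for the small subunit. Among 5 genes of the L7/L12 stalk, Mrpl53 and Mrpl54 rose while Mrpl12 fell by 0.22 and Mrpl10 and Mrpl11 did not pass the test, at -0.08 and 0.06. None of 5 genes at the exit of the peptide tunnel passed the test (edgeR), with 2 at an unadjusted p below 0.05, but with the batch as a block Mrpl45 and Mrpl47 were called higher. Mrps36, which is not a ribosomal component, fell by 0.29.

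In aged BV-2 microglia, 10 of the 78 genes rose with LPS (12.8%, against 27.5% of all genes tested) and 21 fell (26.9%, against 26.9%). With library sizes alone, where the median over all genes was at -0.16, 4 rose and 53 fell. Leaving out batch 5 left 6 genes that rose. Mrpl52 measured 34.8, 32.3, 41.9, 31.1 and 36.8 CPM in untreated and 75.6, 73.2, 83.7, 73.0 and 74.2 CPM in LPS-treated aged samples. The groups did not overlap, and the log2 fold change was 1.10 ± 0.079 (SE, edgeR adjusted p = 6.06e-11). It was again the single gene past 2-fold, a size that 10.9% of all genes tested passed, but was at 0.94 with library sizes alone.

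Mrpl39 rose from 54.3, 55.0, 58.0, 50.6 and 53.1 CPM to 81.3, 80.2, 83.5, 83.5 and 78.3 CPM in aged samples, a log2 fold change of 0.59 ± 0.054 (SE, edgeR adjusted p = 4.63e-09). Mrpl54, Mrps18b, Mrpl17 and Mrpl32 followed at 0.35, 0.32, 0.26 and 0.26. Mrps35 fell from 38.8, 35.9, 37.3, 32.9 and 34.9 CPM to 22.0, 24.7, 23.0, 24.5 and 24.8 CPM, a log2 fold change of -0.59 ± 0.063 (SE, edgeR adjusted p = 4.21e-08). Every treated value of Mrps35 was below every untreated one. Mrpl41, Mrps34, Mrpl34, Mrps23 and Mrpl49 followed at -0.50, -0.42, -0.37, -0.35 and -0.34, all of them also among the genes that fell in young samples.

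The responses at both ages share no library. Of the genes that rose, 8 did so at both ages, 57.1% of those in young and 80.0% of those in aged samples. Of the genes that fell, 20 did so at both ages, 71.4% and 95.2% of the lists. No gene passed the test in opposite directions. The matching overlap over all genes tested was not computed, and the authors report that LPS-changed genes in general overlapped significantly between ages. These shares therefore do not show an agreement particular to the mitochondrial ribosomal protein genes. Genes called higher only in young samples were Mrpl1, Mrpl20, Mrpl21, Mrpl27, Mrpl30 and Mrps10, and those called higher only in aged samples were Mrpl45 and Mrpl57; a call at a single age does not show a difference between ages.

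**Figure D3:**
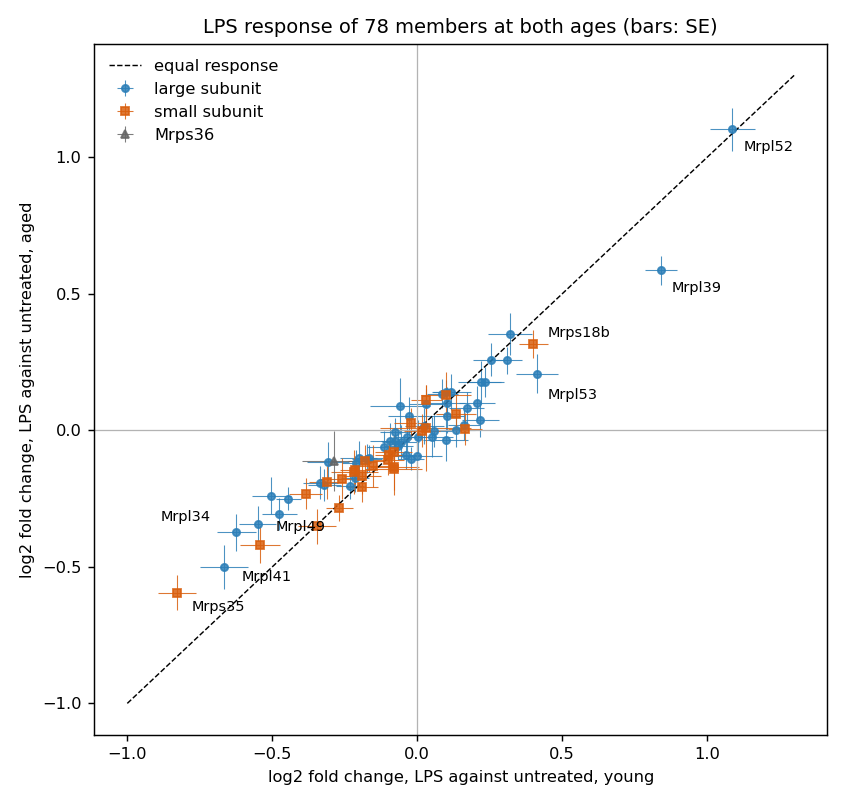
Each point is 1 of the 78 genes, with the log2 fold change of LPS-treated against untreated samples in young cells on the horizontal and in aged cells on the vertical axis, and bars give the SE of edgeR. The dashed line marks equal responses. Mrpl52 lies on that line, Mrpl39 below it, and Mrps35, Mrpl41 and Mrpl34 fell at both ages and lie above it.

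The difference between the LPS responses of aged and young samples was tested as the interaction. Mrpl39 was the single gene called, with a response smaller in aged samples by 0.26 on the log2 scale (-0.26 ± 0.077, SE, edgeR adjusted p = 0.0490). Lower calls of this kind made up 2.27% and higher ones 4.12% of all genes tested. No response of the 78 differed more than 2-fold between ages, against 1.84% of all genes tested. The call lies at the threshold and was lost when any 1 batch was left out, with no filter on low counts and with library sizes alone. It was kept by DESeq2 and with the batch as a block, where the adjusted p was 0.0332. No gene was called higher (edgeR and DESeq2), although 5 of the 78 had an unadjusted p below 0.05. With the batch as a block 3 were called higher, Mrpl14, Mrpl34 and Mrpl42, each of which fell less in aged than in young samples.

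The 3 paralogs Mrps18a, Mrps18b and Mrps18c are related to the same bacterial protein, and Mrps18a sits in the large subunit. Only Mrps18b passed the test after LPS at either age. Mrps18a averaged 86.7 ± 5.8 CPM in young untreated and 93.1 ± 4.3 CPM in young LPS-treated samples (SD, n = 5), and Mrps18c averaged 17.3 ± 1.0 and 19.0 ± 1.7 CPM. Gm43511 overlaps 23.2% of the exon length of Mrps18c on the same strand, so the counts of Mrps18c and its ratio below are uncertain. With the batch as a block Mrps18a was also called higher at both ages. The ratio of Mrps18b to Mrps18a within a sample rose with LPS by 0.30 on the log2 scale in young and by 0.22 in aged samples (exact permutation tests, two-sided, n = 5 per group, p = 0.0238 for each). The ratio of Mrps18b to Mrps18c rose by 0.27 (exact permutation p = 0.0397, n = 5) and 0.26 (p = 0.0159). Adjusted over these 4 comparisons the p-values were 0.0317 to 0.0397. These permutation tests shuffled samples freely between the groups and did not use their pairing by batch. A ratio within a sample does not depend on the scaling of the libraries.

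The comparison of aged with young untreated BV-2 microglia asks whether these genes differ between cells kept long in culture and low-passage cells. Other differences between the aged and young stocks cannot be told apart from long culture. This comparison shares the untreated groups with the LPS comparisons. In aged samples 4 of the 78 genes were higher (5.13%, against 3.71% of all genes tested) and none was lower (edgeR, 0 also by DESeq2 and at an unadjusted p below 0.05, against 7.81% of all genes tested). At an unadjusted p below 0.05, 12 were higher. None differed more than 2-fold, against 2.14% of all genes tested. Without batch 2 none of the genes was called, and without batch 1 or batch 4 there were 2. With the batch as a block 10 were higher, the same 4 together with Mrpl15, Mrpl3, Mrpl53, Mrpl9, Mrps2 and Mrps23. The share of all genes called with that block is not given here, for this or any other comparison. The shares above belong to the fit without it and cannot be set beside the 10.

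Mrpl47, a homolog of bacterial L29 at the exit of the peptide tunnel (ENSMUSG00000037531, chr3:32725397-32737605), measured 39.9, 39.8, 37.2, 42.9 and 46.1 CPM in young and 49.1, 49.9, 46.4, 48.6 and 51.7 CPM in aged untreated samples. The lowest aged value exceeded the highest young one by a small margin, and the log2 fold change was 0.25 ± 0.062 (SE, edgeR adjusted p = 0.0102). Actl6a and Ndufb5 overlap its exons on the opposite strand, the larger of these overlaps covering 13.9% of its exon length. Mrps35, Mrps5 and Mrpl12 were higher by 0.20, 0.19 and 0.15, with edgeR adjusted p-values of 0.0416, 0.0282 and 0.0430. The call of Mrps35 was lost when any 1 batch was left out, that of Mrpl12 without batch 1, 2, 3 or 4, that of Mrps5 without batch 1 or 2 and that of Mrpl47 without batch 2, and the first 3 of these also with no filter on low counts. Mrpl12 measured 161, 158, 154, 155 and 178 CPM in young and 187, 174, 173, 176 and 186 CPM in aged untreated samples, so 1 young sample reached the range of the aged ones. Markers of microglia and macrophages moved in the same samples, with 4 of 11 lower in aged cells, Aif1, Csf1r, Fcer1g and Spi1, and their summed level was 2240 to 3084 CPM in aged and 2584 to 3582 CPM in young untreated libraries. Their part in the result was not tested.

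Among LPS-treated samples, 14 of the 78 genes were higher in aged than in young cells (17.9%, against 14.0% of all genes tested) and 2 were lower (2.56%, against 15.0%). This comparison shares the LPS-treated groups with those above. No gene differed more than 2-fold, against 3.27% of all genes tested. The median log2 fold change of the 78 was 0.08, against 0.01 over all genes tested. The split moved with the scaling. With library sizes alone, where the median over all genes was at 0.09, 38 genes were higher and none was lower. The shares of all genes given above belong to TMM and cannot be set beside these counts. The factors that TMM gave to LPS-treated libraries ran from 0.891 to 0.931 for young cells and from 0.952 to 0.973 for aged cells. Without batch 2 there were 6 higher and none lower, without batch 3 9 and 1, without batch 4 8 and 3, and without batch 5 11 and 1. With the batch as a block 23 of the 78 genes were called in place of 16, and all 16 were kept. The genes added were Mrpl19, Mrpl43, Mrpl47, Mrpl49, Mrpl9, Mrps2 and Mrps23.

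Mrps35 had the largest difference between LPS-treated samples of the 2 ages, with the young and aged values given above not overlapping and a log2 fold change of 0.43 ± 0.067 (SE, edgeR adjusted p = 4.31e-05). Mrpl18, the homolog of bacterial L18 (ENSMUSG00000057388, chr17:12911349-12916345), measured 53.4, 48.2, 42.2, 46.2 and 47.0 CPM in young and 53.6, 55.6, 63.8, 53.3 and 58.5 CPM in aged LPS-treated samples. The ranges touched, since 1 young sample reached the lowest aged values, and the log2 fold change was 0.27 ± 0.061 (SE, edgeR adjusted p = 0.00196). Mrps26, Mrpl41, Mrpl51 and Mrpl34 were higher by 0.25, 0.24, 0.22 and 0.21. The last 3 of these calls were each lost when certain single batches were left out, and those of Mrps35, Mrpl18 and Mrps26 in no alternative.

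The genes that were lower in aged LPS-treated samples were Mrpl39 and Mrpl24, the homolog of bacterial L24 at the exit tunnel. Rrnad1 overlaps 26.3% of the exon length of Mrpl24 on the opposite strand. Mrpl39 differed by -0.19 (edgeR adjusted p = 0.00987), with all 5 aged samples below all 5 young ones, and Mrpl24 by -0.15 (edgeR adjusted p = 0.0126). Both calls were lost with library sizes alone and without batch 2, that of Mrpl39 also without batch 5, and that of Mrpl24 also without batch 3 and with no filter on low counts. Of the markers of microglia and macrophages, 6 of 11 were lower and Tmem119 was higher in aged LPS-treated samples. The summed level of the LPS-response genes was 854 to 2240 CPM in young and 509 to 999 CPM in aged LPS-treated libraries. Whether these markers bear on the differences was not tested.

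Cytosolic ribosomal proteins, 84 tested genes with Rpl or Rps symbols, served as the nearest family. With LPS 56 rose and none fell in young samples (median log2 fold change 0.19), and 40 rose and none fell in aged samples (median 0.16), but with library sizes alone 1 rose and 1 fell at each age. For both counts of 0, DESeq2 and an unadjusted p below 0.05 gave 0 as well. Fold changes of cytosolic ribosomal proteins spanned 0.00 to 0.39 in young samples and those of the 78 mitochondrial ribosomal protein genes -0.83 to 1.09 under TMM scaling. Between ages none of the cytosolic genes was called by edgeR, untreated or LPS-treated, with 1 and 3 at an unadjusted p below 0.05 and 0 and 2 called by DESeq2.

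**Figure D4:**
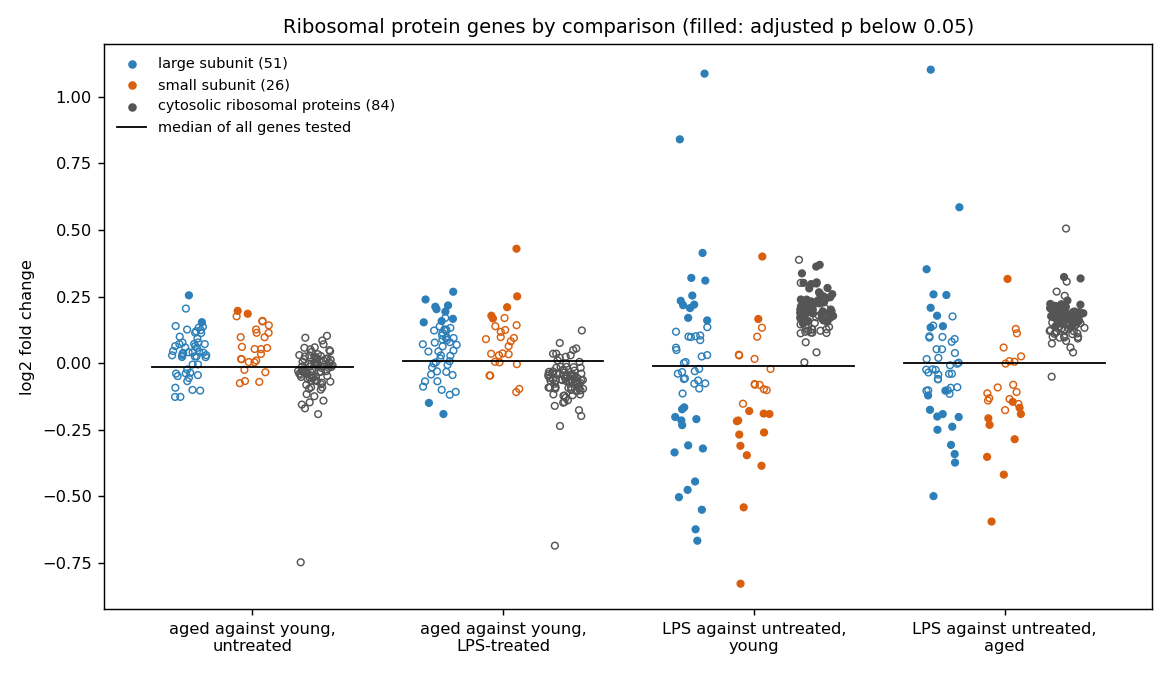
Log2 fold changes of 51 large-subunit, 26 small-subunit and 84 cytosolic ribosomal protein genes are plotted for 4 comparisons. Each point is a gene, filled where the edgeR adjusted p is below 0.05, and black lines give the median over all genes tested. Cytosolic ribosomal proteins cluster above that line with LPS under TMM scaling, whereas mitochondrial ones reach from -0.83 to 1.09 in young samples.

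Genes that act with the mitochondrial ribosome were taken from fixed lists. Of 5 further proteins of the ribosome without an Mrp symbol, none rose and 2 fell with LPS in young samples, Gadd45gip1 by 0.16 and Dap3, a GTPase of the small subunit, by 0.14. In aged samples 3 fell, with Chchd1 added (none rose at either age by edgeR or DESeq2 or at an unadjusted p below 0.05). Of 27 assembly and rRNA modification factors, 5 rose and 12 fell in young and 4 rose and 8 fell in aged samples. The largest falls in young samples were those of the pseudouridine synthase Rpusd3 (-0.85), the ribosome-binding factor Rbfa (-0.81) and Mettl17, needed for the small subunit (-0.79). In aged samples they were those of Rbfa (-0.66), Mettl17 (-0.57) and the rRNA methyltransferase Mrm2 (-0.55). Between aged and young untreated samples Fastkd2, which binds the large-subunit rRNA, was the single gene of this list called, at 0.18. Among LPS-treated samples 4 were higher in aged cells and none lower, with Rpusd3 at 0.74, Ybey at 0.37 and Mettl17 at 0.30 (no lower gene by DESeq2 or at an unadjusted p below 0.05 either).

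Of 15 mitochondrial translation factors, 2 rose and 4 fell with LPS in young samples, and none rose and 3 fell in aged samples (edgeR, with 0 higher also at an unadjusted p below 0.05 and by DESeq2). Slirp, an RNA-binding protein that stabilises mitochondrial mRNAs, rose by 0.45 in young samples, and Guf1, the homolog of bacterial LepA, fell by 0.40 and 0.31 in young and aged samples. Taco1, an activator of cytochrome c oxidase subunit I translation, fell by 0.27 and 0.33. In aged untreated samples 3 of the 15 were higher and none lower, Taco1 by 0.24, the elongation factor Tsfm by 0.21 and Gfm2, a ribosome recycling factor, by 0.15. With LPS Tsfm was also higher in aged samples, at 0.23.

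Of 11 genes for transcription and maintenance of mitochondrial DNA, 4 rose and 7 fell with LPS in young samples and 1 rose and 7 fell in aged samples, whereas with library sizes alone none rose and 7 fell in young samples. The polymerase accessory subunit Polg2 fell by 1.13 and 0.47, the nuclease Mgme1 by 0.56 and 0.40, and the RNA polymerase Polrmt by 0.59 and 0.33. Top1mt, the mitochondrial topoisomerase, rose by 0.27 and 0.43 under TMM scaling. Polg2 and the catalytic subunit Polg were the genes of this list whose responses differed between ages, by 0.67 and 0.25. Of 13 mRNAs encoded by mitochondrial DNA, the messages that this ribosome translates, 7 passed the filter and none was called in any comparison, by edgeR or DESeq2 or at an unadjusted p below 0.05, but with library sizes alone 3 were lower with LPS in aged samples. Log2 fold changes of these mRNAs with LPS ranged between -0.17 and 0.13 in young samples and between -0.48 and -0.22 in aged samples. Libraries were selected for poly(A) RNA, and the low number of mitochondrial mRNAs that passed limits what can be read from them.

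Among known regulators of nuclear genes for mitochondrial proteins, Nrf1 was higher in aged than in young untreated samples by 0.23 (edgeR adjusted p = 0.0376). Gabpa, Ppargc1b and Pprc1 were not called in any comparison, and Ppargc1a had a count of 0 in all 20 libraries, where the floor of 3 counts corresponds to 0.165 to 0.296 CPM. Myc, which binds the E-box with Max, rose with LPS by 1.5 in young and 1.53 in aged samples, from a mean of 3.55 CPM to 10.1 CPM in the young. Nrip1, a corepressor of mitochondrial genes, fell by 1.47 and 0.83. Max rose by 0.68 in young and 0.35 in aged samples, and its response was smaller in aged ones by 0.33 (edgeR adjusted p of the interaction = 7.42e-04). Falls with LPS outnumbered rises further with library sizes alone, at 21 against 1 of the assembly factors and 13 against 1 of the translation factors in young samples and at 16 against 0 and 10 against 0 in aged samples. Of the 10 genes with an NRF1 match upstream, 4 rose and 1 fell with LPS in young samples, and of the 18 with an ETS match 4 rose and 7 fell, beside 12 and 25 of all 69 with a promoter window.

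Genomic neighbours of the genes with the largest changes were examined within 10000 bases. Mrpl39 lies 2330 bases from Mir155hg, the host gene of the inflammatory microRNA miR-155, on the opposite strand, and Mir155hg rose with LPS by 5.67 in young and 4.42 in aged samples. Mrpl52 lies 1855 bases from Mmp14, a membrane metalloproteinase on the same strand, which rose by 3.41 and 3.57. Other genes with a neighbour more than 2-fold higher with LPS in young samples moved either way. Mrpl30, at 65 bases from Mitd1 (1.78), and Mrpl27, at 3761 bases from Xylt2 (1.43), each rose by 0.22. Mrpl4, at 7145 bases from Icam1 (2.89), fell by 0.20. Mrps27 and Mrps6, near Map1b (1.42) and Gm16310 (1.36), fell by 0.27 and 0.22. Mrpl22, at 8173 bases from Gm12250 (6.38), had a log2 fold change of -0.11 that did not pass the test. In all, 8 of the 78 genes had such a neighbour, of which 4 rose and 3 fell, and of the other 70 genes 10 rose and 25 fell. Whether the neighbours bear on the counts or the transcription of Mrpl39 and Mrpl52 was not tested.

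Of the 78 genes, 18 (23.1%) start within 1000 bases of a gene on the opposite strand running away from them, against 11.5% of 10988 protein-coding genes tested. The partner was tested in 17 of these pairs. With LPS in young samples both genes were called in 11 pairs. In 9 of these they moved in the same direction and in 2, those of Mrpl49 and Mrps34, in opposite directions. In aged samples both were called in 8 pairs, 6 in the same direction and 2 in opposite directions. The matching tally over other pairs of genes was not computed. Of the pairs 3 are given as examples, chosen after their values were seen, for LPS in young samples. Mrpl32 rose by 0.31 with Psma2, a proteasome subunit 75 bases away (0.49), and Mrpl41 fell by 0.67 with Pnpla7 (-1.2). Mrpl49 fell by 0.55 while Fau, which encodes a cytosolic ribosomal protein and starts 59 bases away, rose by 0.26, and in aged samples they again moved apart, by -0.34 and 0.22.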

How the data were processed

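RNA-seq counts of 20 BV-2 samples in 4 groups of 5 were used. According to their methods and processing notes, stranded libraries of poly(A) RNA were sequenced, and the authors aligned reads to mouse GRCm38 with STAR 2.6.1d and counted them per gene with featureCounts 1.5.1, and they deposited the counts without normalization. Counting settings for strand, multiple alignments and overlaps are not given in the sources used here, and 33 of the 78 genes share exon bases with another gene. Symbols and positions came from GENCODE M21, in which 55227 identifiers were found.

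All 20 libraries entered a single quasi-likelihood fit with group as the only factor, after filterByExpr and TMM (edgeR 4.0.16 with limma 3.58.1 under R 4.3.3). A gene is called where its Benjamini-Hochberg adjusted p over 12799 genes is below 0.05. SE is the absolute log2 fold change divided by the square root of F. A floor of 3 counts covers counting error only. The labels give the replicate number as a batch, so the numbers pair the samples. As a check, deviations from group means were correlated across genes between same-numbered samples, with a mean r of 0.146 over 30 pairs (-0.21 to 0.39). Between untreated and LPS-treated samples the mean r was 0.276 in young (0.12 to 0.37) and 0.260 in aged cells (0.18 to 0.39). Between groups of different age the mean r ran from 0.042 to 0.111. The main fit did not use the pairing. Alternatives were DESeq2 1.42.0, the batch as a block, other scalings and filters, only the groups compared, and each batch left out. The genes and lists were chosen with earlier results of these data known. Named genes are the called genes with the largest changes, up to 6 in each direction per comparison and 4 for the interaction, the 3 highest and 3 lowest per length, the Mrps18 paralogs, up to 3 called genes per list and comparison, and 6 regulators. Pairs and neighbours of genes were picked after their values were seen. Tests were run on simulated counts first. Permutation tests used scipy 1.17.1 and figures matplotlib 3.10.9, in Python 3.11.15 with numpy 2.4.6 and pandas 2.3.3.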

Additional observations from a re-analysis of the deposited data

Results flagged for a closer look

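Mrpl39 was flagged because its LPS response differed between aged and young samples in the interaction test, by -0.255 on the log2 scale, as given with its limits in the report. Of 104 groups of 5 samples (the 26 named genes in 4 groups), 5 held a sample far from the other 4, where chance flags about 1 in 20 groups, or 5.2 of 104. Mrpl12 measured 178 CPM in young untreated sample 5, against 154 to 161 CPM in the others. Mrpl47 measured 45.1 CPM in aged LPS-treated sample 3, against 49.9 to 50.6 CPM. Mrpl49 measured 43.3 CPM in aged LPS-treated sample 1, against 50.8 to 54.2 CPM. Mrpl52 measured 83.7 CPM in aged LPS-treated sample 3, against 73.0 to 75.6 CPM. Mrpl53 measured 18.6 CPM in young LPS-treated sample 4, against 21.7 to 23.0 CPM.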

How the results depend on the processing

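With library sizes alone the counts of higher and lower genes were 4 and 56 for LPS in young samples, 4 and 53 for LPS in aged samples, 38 and 0 for aged against young with LPS, 7 higher for aged against young untreated, and 3 and 0 for the interaction. The median over all genes moved with this scaling by the amounts given in the report for LPS and for aged against young with LPS. A fit that took the replicate number as a block gave 10 genes higher in aged untreated samples and 3 in the interaction, and with DESeq2 and that block 9 and 2. The block removed none of the calls made without it and moved no other count of the 78 genes by more than 1.5 times. It raised the calls for aged against young with LPS from 16 to 23. For LPS in young samples they went from 42 to 47, and in aged samples from 31 to 36. Without a filter on low counts 1 gene was higher in aged untreated samples, 1 was lower in aged LPS-treated samples, and none was lower in the interaction. Leaving out each replicate number in turn gave 0 to 4 higher genes for aged against young untreated, 6 to 10 for LPS in aged samples, 6 to 15 higher and 0 to 3 lower for aged against young with LPS, and 0 lower for the interaction. DESeq2, its size factors, at least 10 counts in every sample and fits to only the groups compared left every count of the 78 genes within 1.5 times, but not every count of their subsets or of the other lists. With DESeq2, 2 translation factors in place of 4 fell with LPS in young samples, and 4 small-subunit genes in place of 2 were higher in aged untreated samples. With its size factors 1 gene in place of 2 for mitochondrial DNA differed in the interaction. Of 675 values of named genes under these alternatives, none reversed and 59 lost significance. Among the named genes, the LPS responses of Mrpl52, Mrpl39, Mrps35, Mrpl41 and Mrpl34 passed the test at both ages in all of these alternatives. So did those of Mrpl12, Mrpl14, Mrpl18, Mrpl49, Mrps18b, Mrps23, Mrps26 and Mrps34. The cause of the changes with filter and left-out batches was not tested.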
